A study of Mus musculus with 28 samples.

Results

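The livers of male mice that lacked c-Myc in their endothelial cells (EC-Myc KO, here KO) were compared with those of floxed control males (CT) on the low fat control diet (CTD). The 8 libraries, 4 KO (animals 298, 303, 304 and 311) and 4 CT (animals 301, 305, 313 and 320), were taken as the columns with those names in the count table of the male cohort, out of 28 libraries in the series, and all genes were examined. Whole liver RNA of C57BL/6 mice was sequenced with 1 library per animal, and the age given is 13 weeks. All animals, controls included, received tamoxifen at 5 weeks, which switches on the Cre, and CTD was fed from 2 weeks after that for 5 weeks. These intervals do not add up to the labelled age. The descriptions used here name neither the promoter that drives the Cre nor whether the controls carried it, and they do not say whether animals shared litters or cages, so p-values measure the spread between these animals. The other animals of the series, used below only for comparison, were 3 KO and 3 CT females on CTD and 4 KO and 4 CT males on the high-fat/cholesterol diet (HFC).

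c-Myc is a transcription factor that pairs with Max, binds the E-box sequence CACGTG and is known for raising genes of ribosome production, nucleotide synthesis and cell division. The endothelial cells that line the liver sinusoids clear scavenged molecules from the blood through receptors such as Stab1, Stab2 and Mrc1. They also send signals, among them Wnt2, Rspo3, Bmp2 and Bmp6, that set the zones of hepatocyte metabolism and the output of the iron hormone hepcidin, and they lie next to the Kupffer cells, the resident macrophages of the liver.

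The libraries held 22154774 to 22611870 counts and had 17096 to 17286 genes with at least 1 count. Total counts, genes detected and the shares of mitochondrial, major urinary protein, red blood cell and top 100 genes did not pass between genotypes by exact two-sided permutation tests over 70 splits (smallest adjusted p = 0.343 over the 6 measures; the smallest p this design allows is 0.0286). The hepatocyte marker Alb, which encodes albumin, lay between 44644 and 82876 CPM. CPM here means counts scaled to the library total and TMM factor and not per length, so levels are compared between animals and not between genes. CT 320 and CT 313 stood apart from the other controls. CT 320 lay at 46.2 on the first principal component, which held 25.1% of the variance, and the other 7 libraries lay between -23.3 and 5.31. The median leading log2 distance over 500 genes was 1.82 between animals of different genotype, 1.97 between CT animals and 1.70 between KO animals. CT 320 raised the first 2 of these, at 2.07 to 2.34 from the other controls and 2.09 to 2.24 from KO animals. The other controls lay 1.73 (301 and 305), 1.88 (301 and 313) and 1.72 (305 and 313) apart. The medians therefore do not rank the distance between genotypes against that between controls. Results that rest on CT 313 or CT 320 are given below with and without them.

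No gene passed the test at an adjusted p under 0.05 among 14078 genes tested (edgeR's quasi-likelihood test with Benjamini-Hochberg adjustment; 0% called; smallest adjusted p = 0.193). At an unadjusted p under 0.05, 949 genes (6.74%) differed, 398 of them (2.83%) higher and 551 (3.91%) lower in KO. The values of the 4 KO and the 4 CT animals did not overlap for 562 genes (3.99%), of which 273 (1.94%) were higher and 289 (2.05%) lower. DESeq2's Wald test, fitted to its own set of genes, called 11 genes, 4 higher and 7 lower, at adjusted p from 0.000959 to 0.0499, and limma-voom called 0. The 95% interval of the fold change excluded a log2 change of 1 in either direction for 85.0% of genes, and for 97.2% of those with a mean of 5 to 20 CPM. Differences below therefore are sizes with their intervals and not calls.

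**Figure D1:**
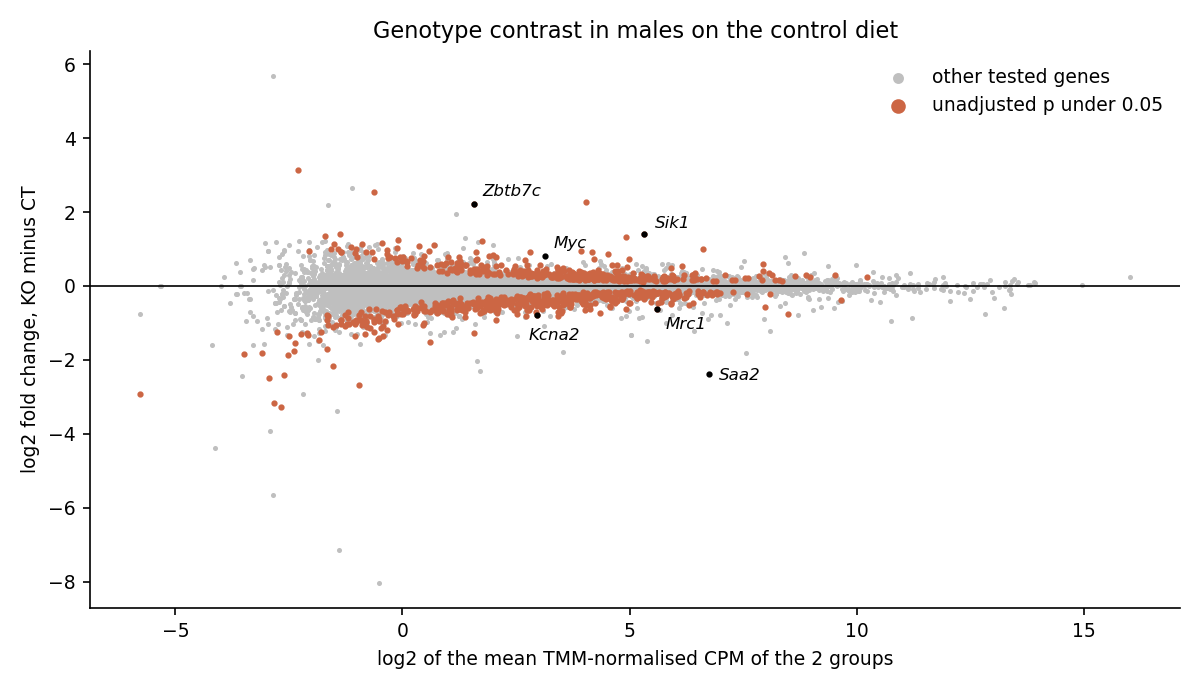
Each point is 1 of the 14078 tested genes, with the log2 of its mean CPM on the horizontal axis and its log2 fold change (KO minus CT, 4 against 4 males on CTD) on the vertical axis. Coloured points have an unadjusted p under 0.05 (949 genes) and none passes after adjustment; black points with names mark Myc, Kcna2, Mrc1, Zbtb7c, Sik1 and Saa2.

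Myc itself (chr15:61985391-61990374, plus strand, GENCODE M21 on GRCm38) was not lower in the KO livers. It stood at 6.09, 4.73, 7.80 and 7.05 CPM in CT 301, 305, 313 and 320, and at 20.1, 6.88, 14.9 and 3.09 CPM in KO 298, 303, 304 and 311. KO 298 and KO 304 lay above all controls and KO 311 below all of them. The log2 fold change was 0.81 (SE 0.55, 95% interval -0.39 to 2.01; adjusted p = 0.842 by edgeR, exact two-sided permutation p = 0.371). Myc is also expressed outside endothelial cells, and a count over the whole gene cannot show which part its reads cover. This value therefore does not check the deletion. Leaving out 1 animal at a time moved the Myc value between 0.37 (without KO 298) and 1.12 (without KO 311), and limma-voom gave 0.51.

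The partners and relatives of Myc differed little. Of 13 tested members of its network 0 were called and 1 had an unadjusted p under 0.05, against 6.74% of all genes. That member was Mlxip, which encodes the glucose-sensing factor MondoA. Mlxip stood at 14.7 to 19.4 CPM in CT and 12.2 to 15.4 CPM in KO, a log2 fold change of -0.27 (SE 0.13). Max, the obligate partner, stood at 18 to 22.2 CPM in CT and 17.7 to 23.3 CPM in KO.

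Genes known as Myc targets in ribosome production and nucleotide synthesis differed little between the genotypes. Of 30 tested, 0 had an unadjusted p under 0.05 against 6.74% of all genes, and the median log2 fold change was 0.02 with a range from -0.18 to 0.21, beside a median of -0.01 over all tested genes. Ncl, encoding nucleolin, stood at 156, 145, 154 and 130 CPM in CT and 128, 145, 145 and 137 CPM in KO, an interval for the log2 fold change of -0.22 to 0.07. Odc1, encoding ornithine decarboxylase, gave -0.03 (SE 0.10). In Pes1 alone of the 30 the animals did not overlap, against 3.99% of all genes, so 1 such gene is near the share over all genes. Pes1, a factor of large ribosomal subunit assembly, stood at 26.3, 23.9, 25.2 and 24.7 CPM in CT and at 27.1, 27.1, 27.3 and 29.6 CPM in KO, higher and not lower with KO, by a log2 of 0.15 (SE 0.08, adjusted p = 0.748 by edgeR). The cell cycle list had 0 of 30 members at an unadjusted p under 0.05 and a median of 0.08.

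The E-box was searched in promoter windows from 250 bases before to 50 bases after the start site (RefSeq, GRCm38.p6), as CACGTG, which reads the same on both strands. It was present in 7.15% of all 32851 windows and in 9.33% of the windows of tested genes. In the Myc target list 11 of 31 windows (35.5%, from 25 matched genes) held it. Among the 25 genes named by rule, 21 matched, and 2 of their 28 windows (7.14%) held it, those of Atoh8 and Pogk, both higher in KO. Windows are shown for Pes1, as the Myc target whose animals separated, for Atoh8 and Pogk, as the 2 named genes with an E-box, and for Clec1b and Mrc1, as the lower named genes that mark Kupffer cells and sinusoidal endothelium. The positions are chr11:3963725-3964024 on the plus strand for Pes1, chr6:72235528-72235827 on the minus strand for Atoh8, chr1:166409779-166410078 on the minus strand for Pogk, chr6:129397047-129397346 on the plus strand for Clec1b and chr2:14229164-14229463 on the plus strand for Mrc1. Each reads 5′ to 3′ along the gene, with the E-box in capitals.
Pes1: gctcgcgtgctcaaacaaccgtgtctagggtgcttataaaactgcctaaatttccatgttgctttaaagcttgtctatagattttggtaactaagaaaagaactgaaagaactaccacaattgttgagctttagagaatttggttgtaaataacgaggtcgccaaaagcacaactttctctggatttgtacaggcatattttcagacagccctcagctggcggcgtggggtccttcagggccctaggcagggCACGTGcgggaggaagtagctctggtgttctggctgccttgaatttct
Atoh8: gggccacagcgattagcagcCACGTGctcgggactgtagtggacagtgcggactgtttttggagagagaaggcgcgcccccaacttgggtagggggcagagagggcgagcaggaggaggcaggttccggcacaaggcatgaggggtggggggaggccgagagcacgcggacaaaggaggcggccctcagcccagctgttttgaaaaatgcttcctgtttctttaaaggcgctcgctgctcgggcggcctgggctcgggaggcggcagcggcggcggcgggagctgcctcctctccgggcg
Pogk: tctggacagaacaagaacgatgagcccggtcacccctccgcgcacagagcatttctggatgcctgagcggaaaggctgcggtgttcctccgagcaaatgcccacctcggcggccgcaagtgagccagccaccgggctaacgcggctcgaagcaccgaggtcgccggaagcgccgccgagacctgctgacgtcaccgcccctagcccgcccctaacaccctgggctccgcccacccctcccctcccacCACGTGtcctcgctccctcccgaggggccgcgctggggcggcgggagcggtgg
Clec1b: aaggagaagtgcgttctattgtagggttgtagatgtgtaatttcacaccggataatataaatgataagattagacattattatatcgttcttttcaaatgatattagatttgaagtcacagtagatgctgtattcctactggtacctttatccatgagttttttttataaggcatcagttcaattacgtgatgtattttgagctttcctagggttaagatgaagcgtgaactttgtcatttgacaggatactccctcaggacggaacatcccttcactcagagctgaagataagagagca
Mrc1: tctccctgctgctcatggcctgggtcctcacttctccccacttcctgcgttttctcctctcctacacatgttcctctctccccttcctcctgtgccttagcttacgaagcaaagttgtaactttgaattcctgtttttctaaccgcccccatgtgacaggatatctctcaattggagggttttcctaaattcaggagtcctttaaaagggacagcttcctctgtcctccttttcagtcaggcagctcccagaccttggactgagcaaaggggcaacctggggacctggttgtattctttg
Counted from the 5′ end of the window, the E-box began at base 253 in Pes1, 248 in Pogk and 21 in Atoh8. A match of letters is a description and not a bound site.

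Among genes lower in KO, those with the smallest p at 5 CPM or more were Kcna2, Clec1b, Dock10, Mrc1, Ifi203, Ptprc, Cd38, Lnpep, Slfn5, Lcor, Msr1 and Prex2. All 12 were chosen because their animals did not overlap, so the separation is not a result. Kcna2 (chr3:107101146-107115005), a voltage-gated potassium channel subunit, stood at 7.83, 9.11, 11.7 and 10.7 CPM in CT and 5.68, 5.78, 4.39 and 7.12 CPM in KO. Its log2 fold change was -0.77 (95% interval -1.06 to -0.49, adjusted p = 0.193 by edgeR and 0.00112 by DESeq2).

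Clec1b (chr6:129397297-129409335) encodes CLEC-2, the podoplanin receptor of platelets that mouse Kupffer cells also express. It stood at 12.9, 11.4, 17.4 and 14.1 CPM in CT and 8.77, 8.97, 7.80 and 9.62 CPM in KO, a log2 fold change of -0.67 (-0.94 to -0.40, adjusted p = 0.243 by edgeR and 0.0106 by DESeq2). Mrc1 (chr2:14229392-14332057), the mannose receptor of sinusoidal endothelium and of macrophages, stood at 61.9, 51.0, 64.0 and 60.0 CPM in CT and 39.7, 36.6, 32.6 and 45.8 CPM in KO. Its level in KO was 0.653 of that in CT, a log2 fold change of -0.61 (-0.89 to -0.34, adjusted p = 0.291 by edgeR and 0.0194 by DESeq2). Ptprc, the common leukocyte antigen CD45, stood at 11, 12.6, 11.9 and 17.7 CPM in CT and 8.68, 7.92, 8.34 and 7.66 CPM in KO, a log2 fold change of -0.71 (-1.05 to -0.37). The KO animals lay close together for Ptprc, and CT 320 was the highest control.

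Dock10 stood at 7.23 to 10.3 CPM in CT and 4.29 to 6.33 CPM in KO (log2 -0.66, SE 0.14). Ifi203, an interferon-inducible gene, was the tightest of the 12 among controls, at 27.1, 27.4, 27.6 and 27.7 CPM, against 19.8, 20.6, 20.2 and 23.1 CPM in KO. Cd38, an enzyme that consumes NAD, gave -0.47 (SE 0.11), and Msr1, the macrophage scavenger receptor, gave -0.58 (SE 0.14). Lnpep, an insulin-regulated aminopeptidase, gave -0.70 (SE 0.16), and Slfn5, a Schlafen family member, -0.66 (SE 0.16). The corepressor gene Lcor gave -0.53 (SE 0.13) and Prex2, an activator of Rac, -0.49 (SE 0.12). DESeq2 called Dock10 and Ptprc of these at adjusted p of 0.0252 and 0.0499.

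Among genes higher in KO, the same rule named Setd4, 1810026J23Rik, Atoh8, Fzd5, AI661453, Tnfaip8l1, Wiz, Flt3l, Pogk, Klf3, Rnf43 and L3mbtl2. Setd4 (chr16:93583457-93604063), a lysine methyltransferase gene, stood at 3.91, 4.93, 5.57 and 5.03 CPM in CT and 12.8, 6.93, 8.68 and 8.49 CPM in KO, a log2 fold change of 0.93 (0.53 to 1.32, adjusted p = 0.291 by edgeR and 0.015 by DESeq2). KO 298 was highest. The rule required all KO animals to lie above all controls, so that separation is not a result. 1810026J23Rik had the smallest SE of the 12, at 36.8, 32.6, 33.3 and 33.2 CPM in CT and 41.7, 45.0, 42.4 and 39.9 CPM in KO (log2 0.31, SE 0.07, adjusted p = 0.291 by edgeR and 0.0194 by DESeq2).

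Atoh8 (chr6:72206177-72235577) is a helix-loop-helix factor known in hepatocytes as a BMP-responsive regulator of hepcidin. It stood at 6.88, 12.6, 7.86 and 14.3 CPM in CT and 24.4, 25.1, 16.6 and 14.7 CPM in KO, a log2 fold change of 0.95 (0.44 to 1.47, adjusted p = 0.641 by edgeR). KO 311 was barely above CT 320. Klf3, a transcriptional repressor, stood at 66.7 to 88.2 CPM in CT and 89.9 to 104 CPM in KO (log2 0.34, SE 0.10). Flt3l, the growth factor of dendritic cells, gave 0.33 (SE 0.09), at 7.07 to 7.63 CPM in CT and 8.24 to 10.04 CPM in KO. Pogk, a KRAB domain gene, gave 0.33 (SE 0.09) and Tnfaip8l1 gave 0.43 (SE 0.12). Among chromatin genes, Wiz, a partner of the G9a methyltransferase, gave 0.27 (SE 0.08) and L3mbtl2, a subunit of a Polycomb complex, 0.28 (SE 0.08).

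Outside the rule, and named after their values were seen, DESeq2 also called Zbtb7c, Csad, Gm45147 and Gm12396. Zbtb7c, a zinc finger factor under 5 CPM on average, stood at 1.29, 1.39, 0.572 and 0.943 CPM in CT and 9.62, 3.04, 2.58 and 4.37 CPM in KO (log2 2.22, SE 0.39, adjusted p = 0.193 by edgeR). Csad, a taurine synthesis enzyme, stood at 57.3, 76.0, 92.5 and 37.5 CPM in CT and 153, 78.4, 140 and 152 CPM in KO, with KO 303 inside the control range. Gm45147 was under 1 CPM in all 8 animals. Gm12396 had counts in CT 320 only, at 3.05 CPM, so its DESeq2 call rests on 1 library.

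**Figure D2:**
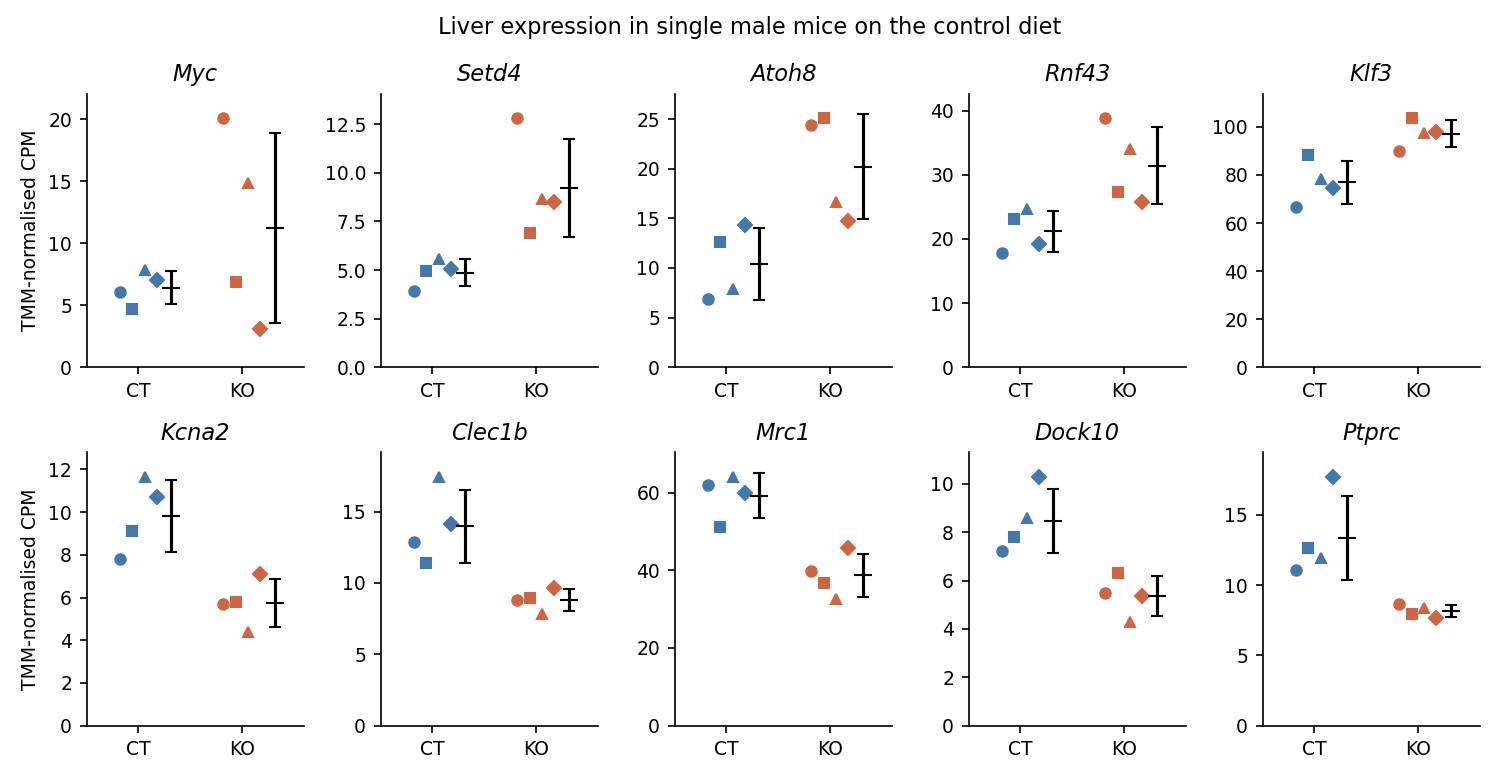
TMM-normalised CPM of 10 genes in single male mice on CTD, CT on the left (circle 301, square 305, triangle 313, diamond 320) and KO on the right (circle 298, square 303, triangle 304, diamond 311), with the mean and SD over 4 animals as a bar. Myc overlaps between genotypes (3.09 to 20.1 CPM in KO), and the other 9 were chosen from genes whose animals do not overlap.

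No sinusoidal endothelial marker passed the test, and all had a lower value in KO livers, by sizes that differed between genes. In bulk liver, fewer cells of a type and less RNA per cell cannot be told apart. All 20 tested markers had a log2 fold change below 0, with a median of -0.33 and a range from -0.64 (F8) to -0.01 (Gata4), and 0 were called. At an unadjusted p under 0.05, 10 of 20 were lower, against 3.91% of all genes, and 5 of 20 did not overlap, against 2.05%. The genes were selected as markers of 1 cell type and vary together between animals, so they are not independent. Summed over the list, the markers took 735 to 859 CPM in CT and 571 to 703 CPM in KO. The mean log2 level per animal, centred on the 8 animals, was 0.28, 0.05, 0.05 and 0.30 in CT 301, 305, 313 and 320, and -0.06, -0.23, -0.37 and -0.03 in KO 298, 303, 304 and 311. KO 303 and KO 304 were lowest, and KO 298 and KO 311 lay close under the lower controls.

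Stab2, the hyaluronan scavenger receptor, stood at 62.2, 55.1, 54.9 and 66.3 CPM in CT and 52.6, 37.8, 35.5 and 49.9 CPM in KO (log2 -0.44, -0.73 to -0.15, adjusted p = 0.685 by edgeR). Fcgr2b, the inhibitory Fc receptor that removes small immune complexes, stood at 57.3, 48.3, 47.4 and 49.7 CPM in CT and 43.0, 32.6, 30.7 and 44.4 CPM in KO (log2 -0.43, SE 0.15). F8, encoding coagulation factor VIII, which liver endothelium makes, stood at 24.3, 16.8, 19.7 and 18 CPM in CT and 14.1, 9.52, 10.7 and 16.2 CPM in KO (log2 -0.64, SE 0.24). In all of these KO 298 and KO 311 lay nearer to the controls than KO 303 and KO 304 did. Stab1 gave -0.31 (SE 0.11), the hyaluronan receptor Lyve1 -0.52 (SE 0.20), the lectin Clec4g -0.28 (SE 0.12) and the lymphatic growth factor receptor Flt4 -0.31 (SE 0.14). Without CT 320 Lyve1 gave -0.29 and Stab1 -0.18. Without CT 320 the list held 5 members lower at an unadjusted p under 0.05 (median -0.24, 4.48% of all genes), without KO 303 it held 5 and without KO 304 it held 4 (median -0.25).

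Markers shared by all endothelial cells showed the same direction, with more overlap. All 20 had a log2 fold change below 0 (median -0.27), 5 at an unadjusted p under 0.05, against 3.91% of all genes, and 1 without overlap, against 2.05%. Pecam1, the junction protein CD31, stood at 19.3, 16.9, 15.5 and 18.9 CPM in CT and 13.6, 12, 10.2 and 16.5 CPM in KO (log2 -0.43, -0.71 to -0.16, adjusted p = 0.685 by edgeR). Cdh5, encoding VE-cadherin, gave -0.35 (SE 0.14), and Fli1 and Ets1, both ETS family transcription factors, gave -0.59 (SE 0.19) and -0.31 (SE 0.13). Kdr, the main receptor for VEGF, gave -0.26 (SE 0.22; -0.12 without KO 303, -0.39 without KO 298 and -0.16 without CT 301), and Tie1 gave -0.06 (SE 0.19). The centred list level was 0.09 in KO 298 and in KO 311, above CT 313 at -0.08 and CT 305 at 0.04, while KO 303 and KO 304 were at -0.33 and -0.42. The count at an unadjusted p under 0.05 was 2 without CT 320, KO 303 or KO 304, 3 without CT 301, and 8 without CT 313 or KO 311.

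Endothelial genes of activation and adhesion were mixed. Of 17 tested, 12 were below 0, and 4 of those had an unadjusted p under 0.05, against 3.91% of all genes. The count of 4 was 1 without CT 320 or KO 304 and 2 without KO 298 or KO 303. Thbd, the anticoagulant receptor thrombomodulin, had the smallest p of the list, at 5.10, 5.38, 5.51 and 5.08 CPM in CT and 2.91, 3.39, 2.73 and 3.63 CPM in KO (log2 -0.73, -1.15 to -0.32, adjusted p = 0.641 by edgeR). Nos3, the endothelial nitric oxide synthase, stood at 3.12 to 3.95 CPM in CT and 2.49 to 3.09 CPM in KO (log2 -0.40, SE 0.19). Vcam1, a leukocyte adhesion receptor that Kupffer cells also carry, gave -0.62 (SE 0.29), and its controls ranged from 24.1 to 46.9 CPM. The capillary marker Plvap gave -0.01 (SE 0.13) and Vwf, encoding von Willebrand factor, gave -0.15 (SE 0.19).

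The list of signals that endothelium sends to other liver cells, which also holds Notch receptors, showed no common direction. Its median was 0.03 over 19 tested genes. The 2 members with an unadjusted p under 0.05, against 6.74% of all genes, were both Notch receptors and pointed opposite ways. Notch1 stood at 14.4, 19, 18.8 and 23.1 CPM in CT and 22.2, 21.7, 23 and 27.1 CPM in KO (log2 0.32, SE 0.12; 0.21 without CT 301). Notch4, the endothelial receptor, stood at 3.76, 3.98, 4.47 and 4.67 CPM in CT and 3.75, 3.34, 3.32 and 3.09 CPM in KO (log2 -0.32, SE 0.14). The Wnt ligand Wnt2 gave -0.02 (SE 0.24), the Wnt enhancer Rspo3 gave 0.16 (SE 0.22) and Bmp6 gave -0.11 (SE 0.23), all from levels under 6 CPM, where the intervals are wide.

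**Figure D3:**
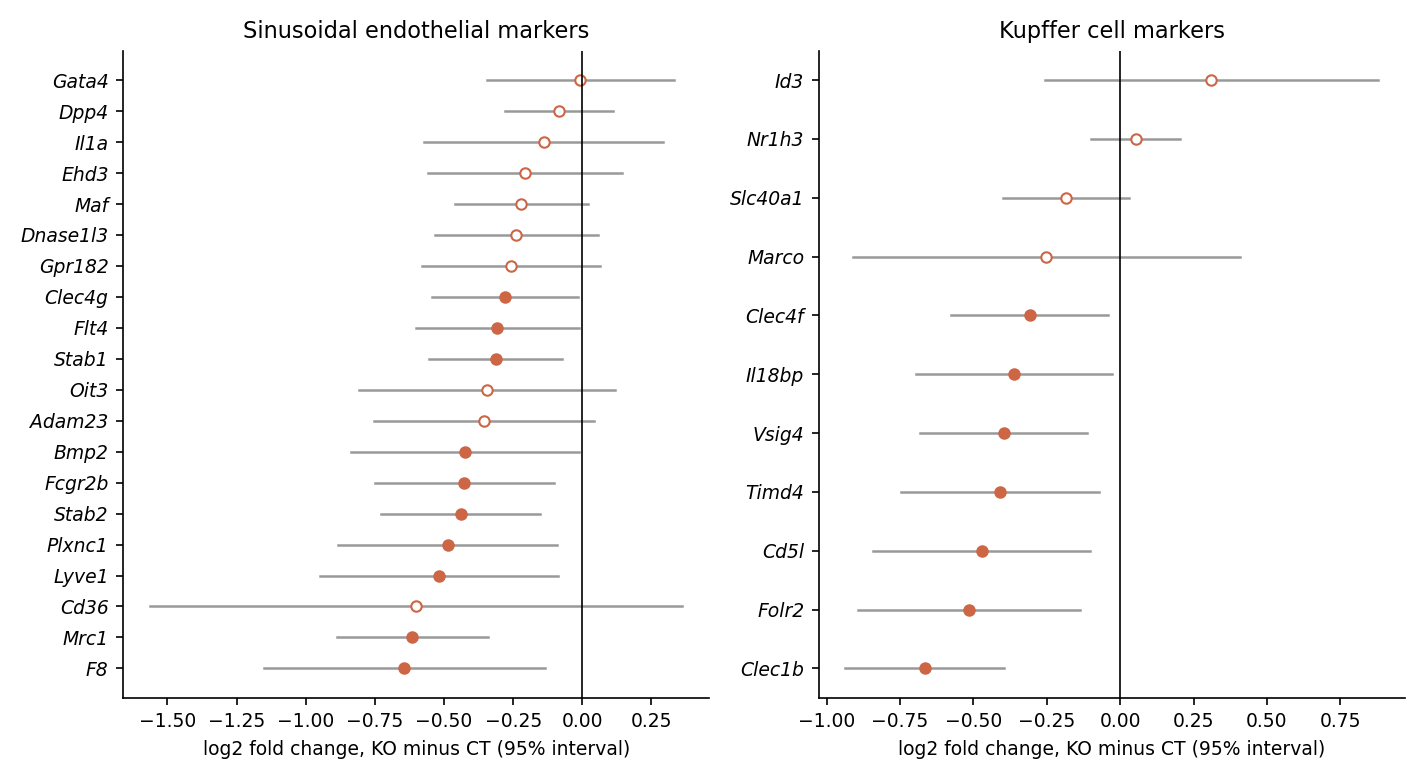
Log2 fold change (KO minus CT, 4 against 4 males on CTD) of each tested sinusoidal endothelial marker on the left and Kupffer cell marker on the right, with its 95% interval from edgeR; filled points have an unadjusted p under 0.05. All 20 sinusoidal markers and 9 of 11 Kupffer markers lie below 0, and none passes after adjustment.

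Kupffer cell markers were lower in KO by a similar size, with 2 of the controls high. Of 11 tested, 9 were below 0 with a median of -0.36, 7 were lower at an unadjusted p under 0.05 against 3.91% of all genes, and 2 did not overlap, against 2.05%. Cd5l, a secreted Kupffer cell protein, stood at 72.5, 78.4, 129 and 110 CPM in CT and 64.2, 77.0, 64.0 and 75.3 CPM in KO (log2 -0.47, SE 0.17). Clec4f, a lectin of Kupffer cells, stood at 66.0, 74.9, 94.1 and 99.5 CPM in CT and 62.7, 71.5, 63.6 and 72.2 CPM in KO (log2 -0.31, SE 0.13). Timd4, a phosphatidylserine receptor, stood at 6.54, 6.77, 10.4 and 9.03 CPM in CT and 5.77, 5.98, 6.10 and 6.78 CPM in KO (log2 -0.41, SE 0.16). In each of the 3 genes CT 313 and CT 320 were the highest animals, and CT 301 lay within the range of the KO animals. Without CT 313 the value of Cd5l was -0.31. Without CT 313 the list held 2 members lower at an unadjusted p under 0.05 (median -0.26), and without CT 320 it held 4. Without both, a setting chosen after the data were seen, it held 1 (median -0.10), against 3.56% of all genes. No KO animals were left out to match. Clec1b, at 12.9 and 11.4 CPM in CT 301 and CT 305, was named because its animals did not overlap. Its separation without CT 313 and CT 320 is therefore not a result.

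General macrophage and monocyte markers followed the Kupffer list. All 22 were below 0 (median -0.36), 6 at an unadjusted p under 0.05, against 3.91% of all genes. Csf1r, the receptor that macrophages need to survive, stood at 53.4, 63.2, 76.8 and 88.7 CPM in CT and 51.0, 55.5, 42.5 and 50.7 CPM in KO (log2 -0.50, SE 0.15). Adgre1, encoding F4/80, stood at 15.8, 19, 22.2 and 24.9 CPM in CT and 14.3, 15.6, 11.8 and 15.7 CPM in KO (log2 -0.51, SE 0.16). CT 320 was highest in both. Without CT 320 the count was 3 (median -0.22), without CT 313 it was 3 and without CT 301 it was 12. Without both CT 313 and CT 320, the highest controls for this list, the count was 0 (median -0.09), against 3.56% of all genes. This setting was chosen after the data were seen, and no KO animals were left out to match.

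Lymphoid and antigen presentation genes were lower on average, at low levels. For T and NK cell markers the median was -0.28, with 19 of 23 below 0 and 2 lower at an unadjusted p under 0.05, against 3.91% of all genes, and the whole list summed to 18.7 to 20.8 CPM in CT and 13.1 to 18.4 CPM in KO. Cd3e, a subunit of the T cell receptor complex, was under 1 CPM in every animal. Il2rb, an interleukin receptor chain of T and NK cells, stood at 1.77 to 2.78 CPM in CT and 1.10 to 2.16 CPM in KO (log2 -0.65, SE 0.23). Clec9a, a receptor of dendritic cells that take up dead cells, stood at 4.51, 4.03, 4.11 and 5.52 CPM in CT and 2.86, 3.44, 1.76 and 3.93 CPM in KO (log2 -0.60, SE 0.19). It was the 1 dendritic cell marker of 11 at an unadjusted p under 0.05, against 6.74% of all genes in either direction. Of the 11, 6 were below 0 and 5 above, with a median of -0.18. Cxcl9, an interferon-induced chemokine, stood at 8.22 to 23 CPM in CT and 6.73 to 9.97 CPM in KO (log2 -0.74, SE 0.27; -0.39 without CT 305). Of 21 chemokine and cytokine genes tested, 15 were below 0 with a median of -0.21, and at an unadjusted p under 0.05 there were 2 lower, against 3.91% of all genes, and 1 higher, against 2.83%. The higher gene was Il1b, encoding the inflammatory cytokine interleukin 1 beta, at 0.594, 0.847, 1.14 and 1.57 CPM in CT and 1.69, 2.29, 1.46 and 1.28 CPM in KO (log2 0.68, SE 0.29). The interferon response list as a whole had a median of 0.02, with 0 of 30 at an unadjusted p under 0.05. The MHC class II list had a median of -0.39 (-0.18 without CT 320) and the B and plasma cell list one of -0.45 (-0.05 without CT 320).

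**Figure D4:**
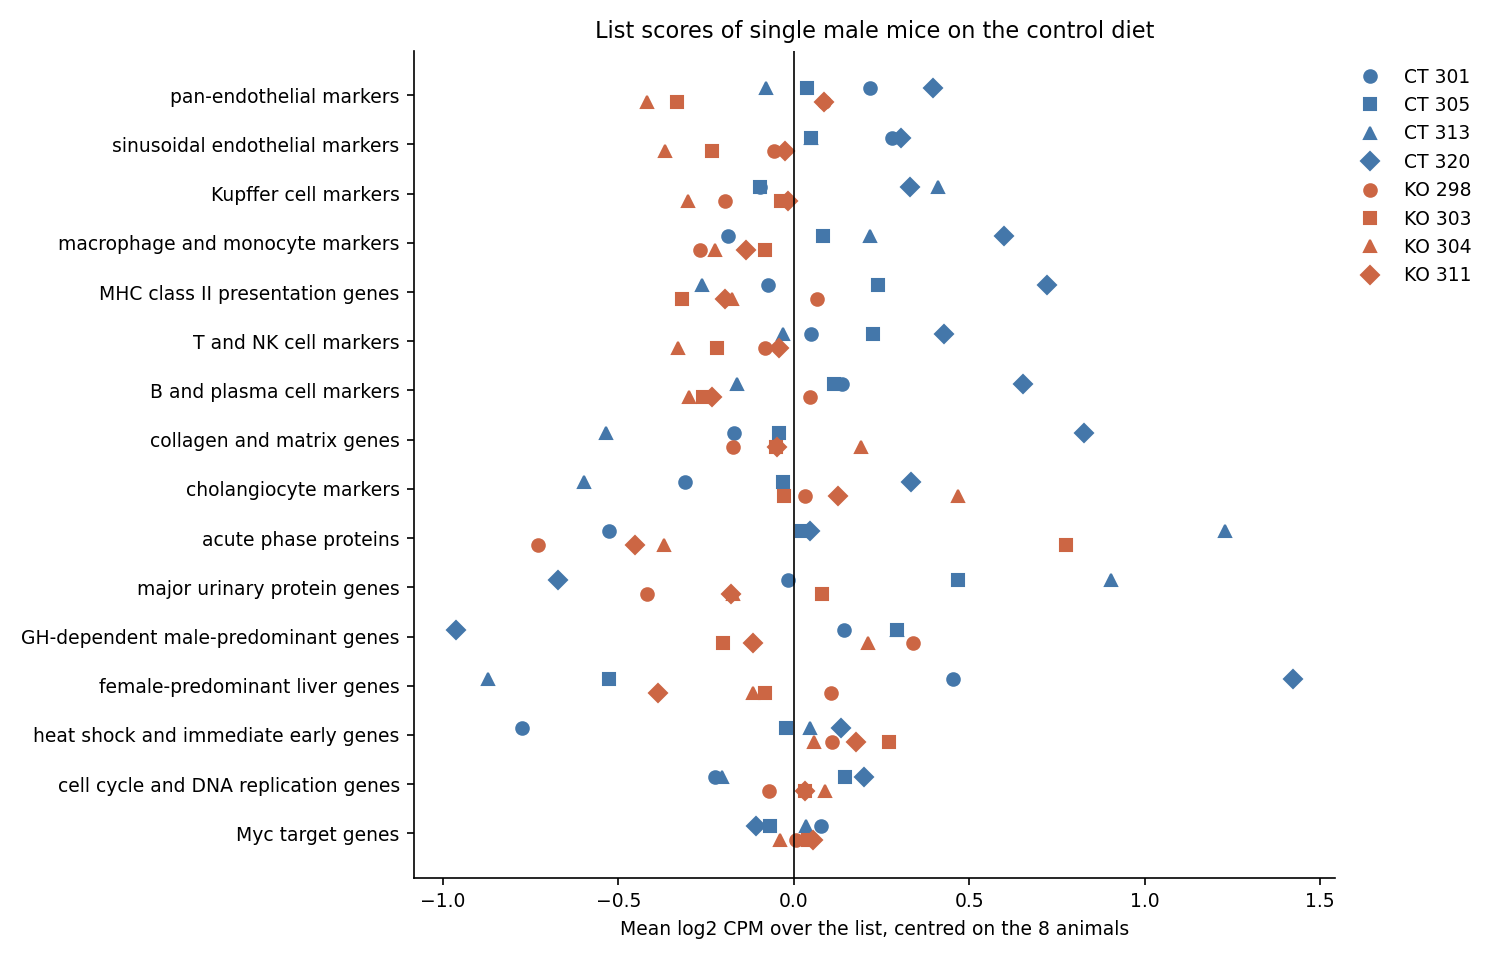
Mean log2 CPM over each of 16 gene lists in single male mice on CTD, centred on the mean of the 8 animals; blue marks are CT and orange marks are KO, with a symbol per animal. CT 320 (blue diamond) is highest for the pan-endothelial, sinusoidal, macrophage, MHC class II, lymphoid, collagen, cell cycle and female-predominant lists. CT 313 (blue triangle) is highest for acute phase proteins at 1.23 and major urinary proteins at 0.91. For the sinusoidal and the T and NK lists all 4 KO animals lie below all 4 CT animals.

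Hepatocyte genes under Wnt control had no common direction, and a few of them had higher values in KO. Pericentral hepatocytes, around the central vein, depend on Wnt ligands from the neighbouring endothelium. Of 20 pericentral genes 3 were higher at an unadjusted p under 0.05, against 2.83% of all genes, 0 were lower, and the median was 0.02. The 3, with Tbx3, were the 4 list members without overlap, all higher in KO, against 1.94% of all genes. In this list 0 genes were called. Rnf43 stood at 17.7, 23.1, 24.7 and 19.3 CPM in CT and 38.8, 27.3, 33.9 and 25.8 CPM in KO (log2 0.57, 0.22 to 0.92, adjusted p = 0.685 by edgeR). Znrf3 stood at 13.8, 17.4, 19.2 and 18 CPM in CT and 20.7, 20.3, 21.1 and 20.7 CPM in KO (log2 0.27, SE 0.09). Both encode ubiquitin ligases that remove Frizzled receptors, and the Frizzled receptor Fzd5 was itself among the 12 named higher genes, at 7.28, 8.47, 9.83 and 10.4 CPM in CT and 14, 12.5, 10.7 and 12.1 CPM in KO (log2 0.45, SE 0.12).

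Axin2, a scaffold of the complex that degrades beta-catenin and a common readout of Wnt signalling, stood at 5.70, 5.73, 8.64 and 6.51 CPM in CT and 10.8, 9.42, 9.95 and 8.98 CPM in KO (log2 0.56, 0.18 to 0.94, adjusted p = 0.685 by edgeR). Tbx3, a T-box factor of pericentral hepatocytes, stood at 22.9, 32.7, 33.8 and 22.8 CPM in CT and 51.7, 42.4, 36.4 and 37.9 CPM in KO (log2 0.59, SE 0.30). Other Wnt-dependent genes of the list lay near 0. Glul, encoding glutamine synthetase, gave -0.01 (-0.39 to 0.38), the ethanol-oxidising Cyp2e1 gave -0.03 (-0.48 to 0.42) and Lgr5, the R-spondin receptor, gave 0.00 (-0.45 to 0.45), and single animals left out turned the sign of Glul and Cyp2e1. The periportal list had 0 of 20 at an unadjusted p under 0.05 and a median of 0.08.

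In the iron pathway, Atoh8 was the largest difference. Bmp2, an endothelial signal for hepcidin, stood at 22.6, 15.8, 15.0 and 17.8 CPM in CT and 16.6, 12.6, 10.05 and 13.8 CPM in KO (log2 -0.42, SE 0.19). Hamp, which encodes hepcidin, stood at 362, 221, 284 and 254 CPM in CT and 330, 689, 289 and 421 CPM in KO (log2 0.63, -0.11 to 1.36, adjusted p = 0.781 by edgeR), and 0.31 without KO 303. KO 303 held the highest Hamp value, and KO 298 and KO 304 lay within the control range. The median of the 17 tested genes of the list was 0.09.

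Of 20 tested genes of the fasting, insulin and glucose response, 3 were higher at an unadjusted p under 0.05, against 2.83% of all genes, and 0 were called. Sik1, a kinase gene induced by cAMP, stood at 12.3, 18, 34.2 and 23.3 CPM in CT and 85.1, 38.3, 81.2 and 28.5 CPM in KO (log2 1.41, SE 0.41, adjusted p = 0.685 by edgeR). Irs2, the insulin receptor substrate, stood at 17.9, 22.4, 27.1 and 28.7 CPM in CT and 60.6, 32.7, 45.7 and 19.4 CPM in KO (log2 0.72, SE 0.30; 0.44 without KO 298). Ppp1r3g, a glycogen-targeting subunit that responds to feeding, stood at 1.24, 3.64, 5.88 and 11.6 CPM in CT and 58.7, 7.82, 37.3 and 5.40 CPM in KO (log2 2.28, SE 0.94). KO 298 was highest and KO 304 was next in Myc, Sik1, Irs2 and Ppp1r3g, and KO 311 was the lowest KO animal in all of the 4. The list median was 0.01.

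Acute phase proteins had a median of -0.31, with 21 of 24 below 0 and 0 at an unadjusted p under 0.05, and this value rests on CT 313. Saa2, a serum amyloid A gene, stood at 7.58, 27.3, 653 and 30.5 CPM in CT and 4.18, 117, 8.83 and 9.13 CPM in KO. CT 313 and KO 303 were far above the other animals of their genotypes, in Saa1 and Lcn2 too. The log2 fold change of Saa2 was -2.37 (SE 1.38), 0.67 without CT 313 and -4.61 without KO 303. Without CT 313 the list median was 0.17. Major urinary proteins, the male pheromone carriers under growth hormone control, had 19 of 20 below 0 with a median of -0.46, which was -0.18 without CT 313. Their near-identical sequences make the single genes uncertain, and their share of all counts was 7.05% ± 2.77 (SD, n = 4) in CT and 5.79% ± 0.314 (SD, n = 4) in KO.

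The collagen and matrix list had a median of -0.15, with 0 of 39 at an unadjusted p under 0.05, and a median of 0.14 without CT 320. Col1a1, the main fibrillar collagen gene, stood at 4.51, 5.38, 3.17 and 34.9 CPM in CT and 3.19, 6.98, 10.7 and 6.73 CPM in KO. Cholangiocyte markers were the cell type list with the highest median, 0.30, with 9 of 10 above 0 and 0 at an unadjusted p under 0.05. Stellate cell markers had a median of 0.01 and neutrophil genes one of -0.49, which was 0.10 without CT 313 and CT 320.

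The same genotype contrast was read in animals that share none with these 8. In females on CTD 0 of 13999 genes were called (0%; 446, or 3.19%, at an unadjusted p under 0.05) and in males on HFC 0 of 14078 (0%; 653, or 4.64%) by edgeR. Over all genes tested in both, 47.6% had the same sign in females as in these males, and 36.2% (104 of 287) of the genes whose animals did not overlap and were lower did. For the genes higher without overlap it was 50% (136 of 272). In males on HFC the shares were 43.6% (126 of 289) for lower and 57.9% (158 of 273) for higher genes, against 50.1% of all genes. Across genes the log2 fold changes correlated at Pearson's r of -0.07 with females and 0.05 with HFC males, where genes are not independent replicates.

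For single genes the values in the other animals were as follows. Kcna2 gave 0.22 (SE 0.41) in females and 0.17 (SE 0.13) in HFC males, Mrc1 gave 0.10 (SE 0.32) and -0.05 (SE 0.13), and Clec1b gave -0.07 (SE 0.44) and 0.27 (SE 0.12). Atoh8 gave -0.21 (SE 0.25) in females and 0.62 (SE 0.23) in HFC males, where it stood at 11.9, 13.3, 16.1 and 14.5 CPM in CT and 15.4, 22.1, 26.3 and 22.4 CPM in KO. The mean of Atoh8 was thus higher in KO in both male sets. Setd4 gave -0.13 (SE 0.28) and -0.01 (SE 0.18), and Rnf43 gave 0.10 (SE 0.24) and 0.24 (SE 0.17). Myc gave 0.69 (SE 0.56) and 0.45 (SE 0.54), so the mean was higher in KO in all 3 sets, with intervals that include 0.

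List medians in the other animals were as follows. The sinusoidal list had a median of -0.02 in females (11 of 20 below 0) and -0.12 in HFC males (18 of 20 below 0). The Kupffer list had medians of 0.19 and 0.27, the macrophage list 0.18 and 0.39 (0 of 22 below 0 in HFC males) and the MHC class II list 0.49 and 0.52. Female CT 318 was high for macrophage and Kupffer genes. Adgre1 stood at 7.19, 9.93 and 40.6 CPM in female CT 306, 308 and 318. Clec1b stood at 9.19, 8.77 and 18.4 CPM in the same animals. The female medians are given with CT 318 included, so its part in them is not shown. No gene passed the test of the difference between diets (0 of 14078, 0%; smallest adjusted p = 0.415; 852 genes, 6.05%, at an unadjusted p under 0.05) or between sexes (0 of 14685, 0%; smallest adjusted p = 0.859; 5.54%) by edgeR. At an unadjusted p under 0.05 the diet test included 20 of 22 macrophage markers, 7 of 11 Kupffer markers, 7 of 10 MHC class II genes and 1 of 20 sinusoidal markers. The sex test included 2 of 22, 0 of 11, 0 of 10 and 3 of 20 of these lists in the same order. Both tests contain the 8 CTD animals, CT 313 and CT 320 among them, so they are not separate from the values above.

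**Figure D5:**
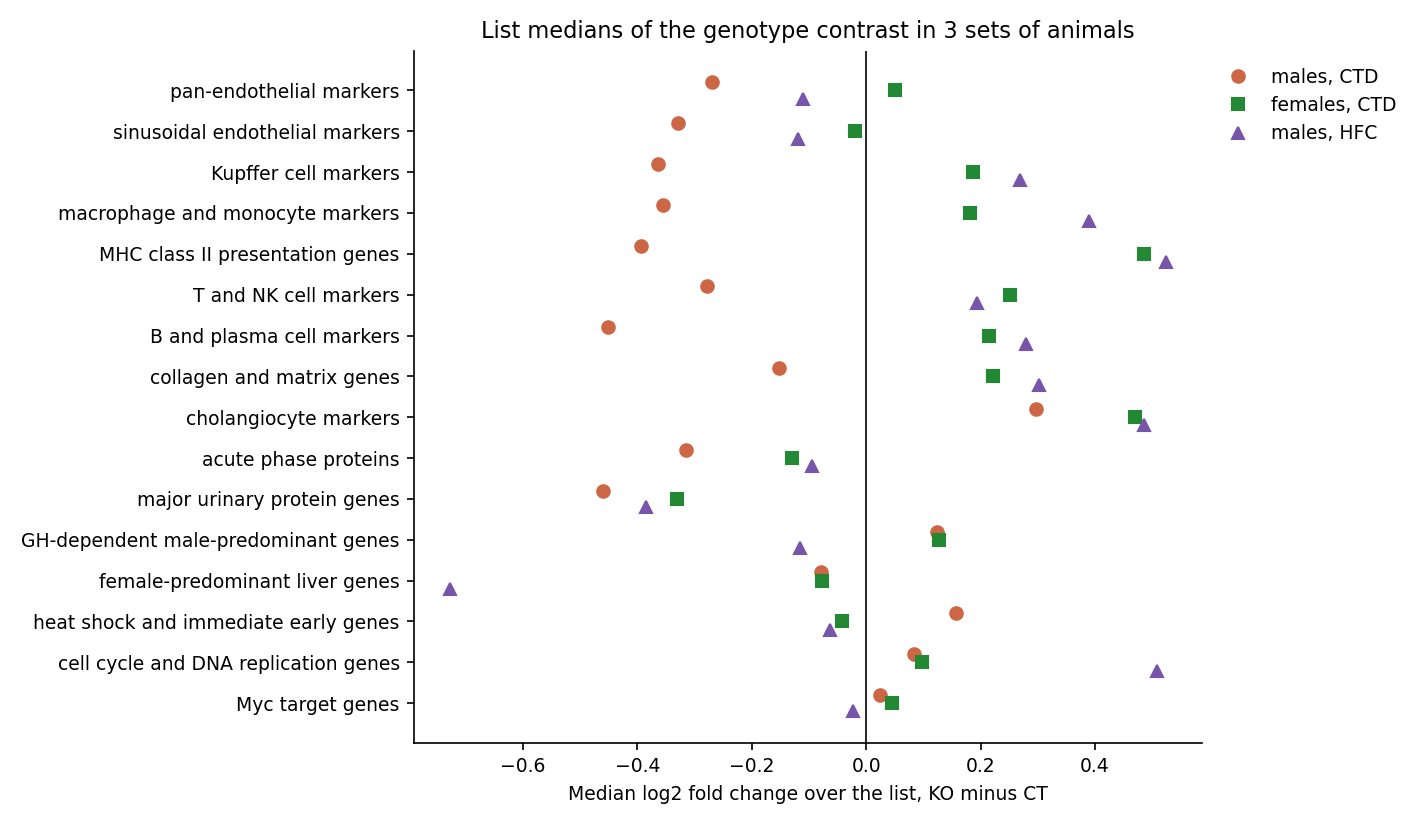
Median log2 fold change (KO minus CT) over each of 16 gene lists in males on CTD (circles, 4 against 4), females on CTD (squares, 3 against 3) and males on HFC (triangles, 4 against 4). The macrophage list lies at -0.36, 0.18 and 0.39, the sinusoidal list at -0.33, -0.02 and -0.12; 0 genes were called in each of the 3 sets.

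The controls varied more than the KO animals with CT 320 included. The median SD of log2 CPM over genes was 0.188 in CT and 0.153 in KO, and 62.0% of genes had the larger SD in CT. Without CT 320 the control value was 0.147. That value came from fewer animals than the KO value, and no KO animal was left out to match. It therefore does not rank the controls against the KO animals. CT 320 was low for growth hormone dependent male-predominant genes, with a centred list level of -0.96 against 0.14 to 0.29 in the other controls, and high for female-predominant genes, at 1.42. Cyp2b9, a cytochrome that is normally higher in female liver, stood at 11.9, 6.22, 0.936 and 52.5 CPM in CT and 1.92, 9.62, 3.76 and 5.79 CPM in KO. CT 301 was the lowest animal for heat shock and immediate early genes, at -0.77 against -0.02 to 0.27 in the other 7. The part of these animals' states in the genotype values was not tested beyond leaving each out.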

How the data were processed

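Whole liver RNA went through DNBSEQ sequencing at BGI, per the labels' protocols. The authors deposited raw read counts per gene, with a column per animal, and a CPM table that was not used. Per the submitters' processing notes FastQC, edgeR and the build GRCm38 (mm10) were used, without stated roles. The aligner, the annotation and any use of strand were not given in the sources used here, so reads of overlapping, antisense or near-identical genes cannot be told apart.

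Counts of 16 male libraries were fitted together in edgeR 4.0.16 (R 4.3.3) with a mean per group, TMM factors, filterByExpr and a robust quasi-likelihood test, with Benjamini-Hochberg adjustment over all tested genes. The biological coefficient of variation was 0.161. SE is the log2 fold change over the square root of F. Females were fitted apart in 12 libraries, and the sex difference in all 28. The steps were tested on simulated counts. DESeq2 1.42.0 and limma-voom (limma 3.58.1), other scaling, filters and leaving out animals were alternatives. Replicate pairs of a genotype differed by more than counting noise (chi-square per degree of freedom 12.8 to 145).

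Named genes were the 12 per direction with the smallest p, at a mean of 5 CPM or more and with genotypes that did not overlap, then 2 members per list with the smallest p, then endothelial and Myc network members by level, then genes that varied most. Clec4g, Flt4, F8, Lyve1, Timd4, Cd5l, Clec4f, Axin2, Tbx3, Glul, Cyp2e1, Lgr5, Plvap, Vwf, Alb, Col1a1, Odc1 and the others outside this rule were chosen after their values were seen. The comparison and the 42 gene lists (842 of 849 entries in the tables) were chosen with earlier results of these data known. Of 25 genes named by rule 21 matched the RefSeq promoter table. Coordinates are GENCODE M21, counted from 1.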

Additional observations from a re-analysis of the deposited data

Results flagged for a closer look

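Of 252 groups of 4 animals (each genotype, over reported genes, gene lists and library measures), 14 held an animal whose gap to the nearest other, over the whole range, passed the 95% critical value of Dixon's test. Chance gives about 1 in 20 for groups chosen without regard to their spread. Some reported genes were named because they varied most or after their values were seen. The total of 14 therefore cannot be set against that rate. The groups share animals and hold genes that vary together, so they are not independent. The animals below are therefore listed as descriptions, and the count is not evidence that any of them is unusual.

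CT 313 stood far above the other controls in Saa2 (653 CPM, others 7.58 to 30.5), Saa1 (987 CPM, others 23.8 to 88.7), Lcn2 (196 CPM, others 6.98 to 21.6) and Glul (1152 CPM, others 908 to 939). Saa1, Saa2 and Lcn2 are acute phase genes, and Glul encodes glutamine synthetase. KO 303 stood above the other KO animals in Saa2 (117 CPM, others 4.18 to 9.13), Saa1 (278 CPM, others 13.0 to 23.3) and Lcn2 (73.3 CPM, others 3.24 to 5.60). The 2 animals thus share the same 3 genes.

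CT 320 stood apart from the other controls in the centred level of 4 lists: recruited and lipid-associated macrophage genes (0.636, others -0.158 to -0.0547), bile acid genes (-0.214, others 0.0553 to 0.0695), growth hormone dependent male-predominant genes (-0.962, others 0.143 to 0.295) and mitochondrially encoded genes (-0.269, others 0.0432 to 0.0932). Its mitochondrial share of counts was 10.9%, against 12.1% to 12.3% in the other controls.

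KO 311 was highest of the KO animals in Pes1 (29.6 CPM, others 27.1 to 27.3) and in total counts (22611870, others 22368825 to 22403474).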

How the results depend on the processing

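No paired analysis was possible because each animal carries its own number and no number is shared between the groups. The count of called genes in males on CTD stayed at 0 under RLE factors, library totals, no filter, a mean of at least 1 CPM, limma-voom, a fit of the 2 groups alone and each animal left out (0 to 0). DESeq2 gave 11 in males on CTD, 3 in males on HFC and 5 for the diet difference, against 0 each. With 1 animal left out Myc ranged from 0.37 to 1.12.

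Directions turned for genes near 0 or carried by CT 313. With 1 animal left out Saa2 ranged from -4.61 (without KO 303) to 0.67 (without CT 313), Saa1 from -3.97 to 0.48 and Lcn2 from -3.71 to 0.44, with the same 2 animals at the ends. Glul ranged from -0.084 to 0.079, also turning without KO 298 or KO 304, and Cyp2e1 from -0.126 to 0.067, turning without CT 301, CT 313 or KO 298. Without CT 313 and CT 320 Saa2 was 0.99, Saa1 0.57, Lcn2 0.71 and Glul 0.096. The top 100 genes' share, KO minus CT, was -0.0456 percentage points of nuclear counts. Why directions turned was not tested for any of these genes beyond leaving animals out. Under 1 CPM the 95% interval excluded a log2 change of 1 for 27.9% of genes; depth and the spread between animals were not told apart there.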

Other observations

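Metabolic lists not described above held few genes at an unadjusted p under 0.05 in males on CTD. Fatty acid oxidation and PPAR alpha targets were above 0 in KO for 25 of 30 genes, with a median of 0.08 and 0 at that p, and below 0 for 29 of 30 in males on HFC, with a median of -0.14. Bile acid genes had a median of -0.01 over 23 genes and cholesterol synthesis genes one of -0.04 over 25, both with 0 at that p. In the lipid synthesis list 1 of 25 genes was at that p, against 6.74% of all genes. Thrsp, which promotes lipogenesis, stood at 343, 389, 401 and 662 CPM in CT and 187, 267, 326 and 290 CPM in KO (log2 -0.75, SE 0.27, adjusted p = 0.720 by edgeR), and gave 0.04 in females and -0.81 in males on HFC.

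Ephx1, a detoxifying epoxide hydrolase, stood at 198, 201, 248 and 135 CPM in CT and 340, 185, 271 and 389 CPM in KO (log2 0.60, SE 0.24). Hsp90b1, a chaperone of the endoplasmic reticulum, stood at 991, 1133, 877 and 649 CPM in CT and 718, 735, 742 and 625 CPM in KO (log2 -0.37, SE 0.16). Clock genes had 0 of 20 at an unadjusted p under 0.05 and a median of 0.00.

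Metallothionein Mt2 varied with the acute phase genes, at 435 CPM in CT 313 and 317 CPM in KO 303 against 7.46 to 122 CPM in the other 6 animals. Gm10359 and Gm12671 had identical SDs of log2 CPM in each genotype (3.27 in CT and 4.86 in KO).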
